A study of Rattus norvegicus with 15 samples.

Results

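Messenger RNA of 7 genes that act in muscle wasting was followed in the multifidus, the deep back muscle beside the spine, of rats with and without spinal surgery. The genes were the ubiquitin ligases Trim63, Fbxo32, Fbxo30 and Fbxo21 and the transcription factors Foxo1, Foxo3 and Foxo4. They were taken by gene symbol from a table of 37991 genes, and all 7 of 7 were found and passed the filter on low counts, which left 17201 genes for testing. All animals were wild type male Sprague Dawley rats, and total RNA was sequenced in 15 libraries. Their age was 12 weeks when they were divided into groups, in methods that describe the control, surgery and pMT groups only. The control group (2 libraries) had no injury. The surgery group (2 libraries) was operated on and given nothing afterwards. In the methods of the study the operation removed part of the vertebral laminae on the left and tied off the left L5 spinal nerve, so that injury and loss of nerve supply came together. The pMT group (4 libraries) was operated on and then injected with mitochondria isolated from the blood plasma of human volunteers, 25 µg at each of 2 sites in the left paraspinal muscle. The VitD group (3 libraries) received cholecalciferol after surgery, 150 µg at each site, and the pMT/VitD group (4 libraries) received both agents after surgery at these doses. For pMT the methods place the injection 14 days and the muscle sampling 28 days after surgery; the days were not given for the VitD groups. No group received the carrier buffer alone, and the labels do not say that each library came from a separate rat, so the p-values below measure the spread between these libraries.

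Skeletal muscle loses protein largely through the ubiquitin-proteasome system, in which a ligase attaches ubiquitin chains to the protein to be broken down. Trim63 (MuRF1) is a RING-finger ligase of the sarcomere and Fbxo32 (atrogin-1, MAFbx) is the substrate-binding F-box subunit of an SCF ligase complex; both are the classic markers of wasting after denervation, fasting or disuse. Fbxo30 (MUSA1) and Fbxo21 (SMART) are F-box proteins of the same kind that were tied to denervation later. The Foxo factors are forkhead transcription factors that switch on these ligases when insulin and IGF1 signalling is low, and the kinase Akt keeps them out of the nucleus by phosphorylation, so that their activity is set largely at the protein and need not show in their own messenger RNA.

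The upstream sequences of the best-known ligase and of the ligase whose level differed between groups are shown because the forkhead motif is how Foxo factors are known to act. Promoter sequences from RefSeq (assembly GRCr8) were used for 5 of the 7 members; those of Fbxo32 and Foxo3 were not analysed here. The 250 bases before the annotated start are printed in the direction of transcription, with capitals marking each TGTTTAC, a forkhead core motif, and each CANNTG, the E-box bound by myogenic factors, both searched on both strands.
Trim63, chr5:151816986-151817235, plus strand: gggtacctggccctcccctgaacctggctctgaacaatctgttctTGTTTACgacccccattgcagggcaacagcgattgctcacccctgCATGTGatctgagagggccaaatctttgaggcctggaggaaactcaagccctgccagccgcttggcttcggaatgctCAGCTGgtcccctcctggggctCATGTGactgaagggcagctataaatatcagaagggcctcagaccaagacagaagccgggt
Fbxo30, chr1:7475589-7475838, plus strand: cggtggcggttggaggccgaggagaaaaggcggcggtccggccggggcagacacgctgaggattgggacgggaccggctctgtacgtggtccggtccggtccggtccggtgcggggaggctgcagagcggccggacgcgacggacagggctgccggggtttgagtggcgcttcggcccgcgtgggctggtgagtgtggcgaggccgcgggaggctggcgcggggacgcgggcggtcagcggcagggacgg
The Trim63 window held 1 forkhead motif, starting at position -205 from the annotated start, and 3 E-boxes, at -160, -83 and -61. The Fbxo30 window held neither motif and had a GC content of 75.6%, against 56.8% for Trim63. Among all 33469 rat promoters of this length, 3.21% held the forkhead motif and 65.5% held an E-box, so an E-box by itself marks little. Fbxo21 and Foxo4 each had 1 E-box and Foxo1 had neither motif. These matches describe letters and are not evidence of binding.

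The libraries held 52342134 to 73557878 counts, and no pair of replicates agreed within sampling noise (their counts differed by 1.99 to 14.3 times that noise). The largest distance was between VitD 1 and VitD 3. VitD 1 also lay 10.4 times that noise from VitD 2, against 4.14 times between VitD 2 and VitD 3. The tissue carried the markers of fast muscle, with 6 of 6 fast-fibre genes detected in every group. The libraries pMT 4 and pMT/VitD 4 stood apart from their groups: pMT 4 had low and pMT/VitD 4 had high Fbxo32, Foxo1 and Foxo3, each closer to the other group's remaining libraries. The rank correlation of a library's deviations with gene length was -0.32 in pMT 4, against 0.02 to 0.45 in pMT 1 to pMT 3. It was 0.15 in pMT/VitD 4, against -0.39 to -0.165 in pMT/VitD 1 to pMT/VitD 3. They were kept in the groups their labels give, and whether they were exchanged was not tested, so every pMT and pMT/VitD value rests on those labels. Mitochondrial genes took 22.6% of the counts in pMT 4 and 11.5% in pMT/VitD 4, within a range of 10.7% to 22.6% over the 15 libraries. Results that rest on these libraries are given with and without them below; since they were singled out on these same data, values without them are a description of the remaining libraries. In bulk muscle, fewer cells of a type and less RNA per cell cannot be told apart.

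Fbxo30 was the only member that passed a test between groups when all libraries were used. It was 1.64-fold higher after surgery with VitD than in uninjured muscle, and lower in operated muscle given pMT/VitD than in muscle given VitD (0.539-fold) or nothing (0.617-fold). Trim63 was high, and with the main scaling of the counts it was nearly flat across groups. Fbxo32, Foxo1 and Foxo3 varied over several fold between libraries, together and mostly within the treated groups, and no comparison in the fit of all libraries called them. Over the 5 groups, 1 of 7 members passed edgeR's quasi-likelihood test (Benjamini-Hochberg adjusted p = 0.00108 for Fbxo30, and 0.484 to 0.868 for the others), where 11.8% of all genes did.

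**Figure D1:**
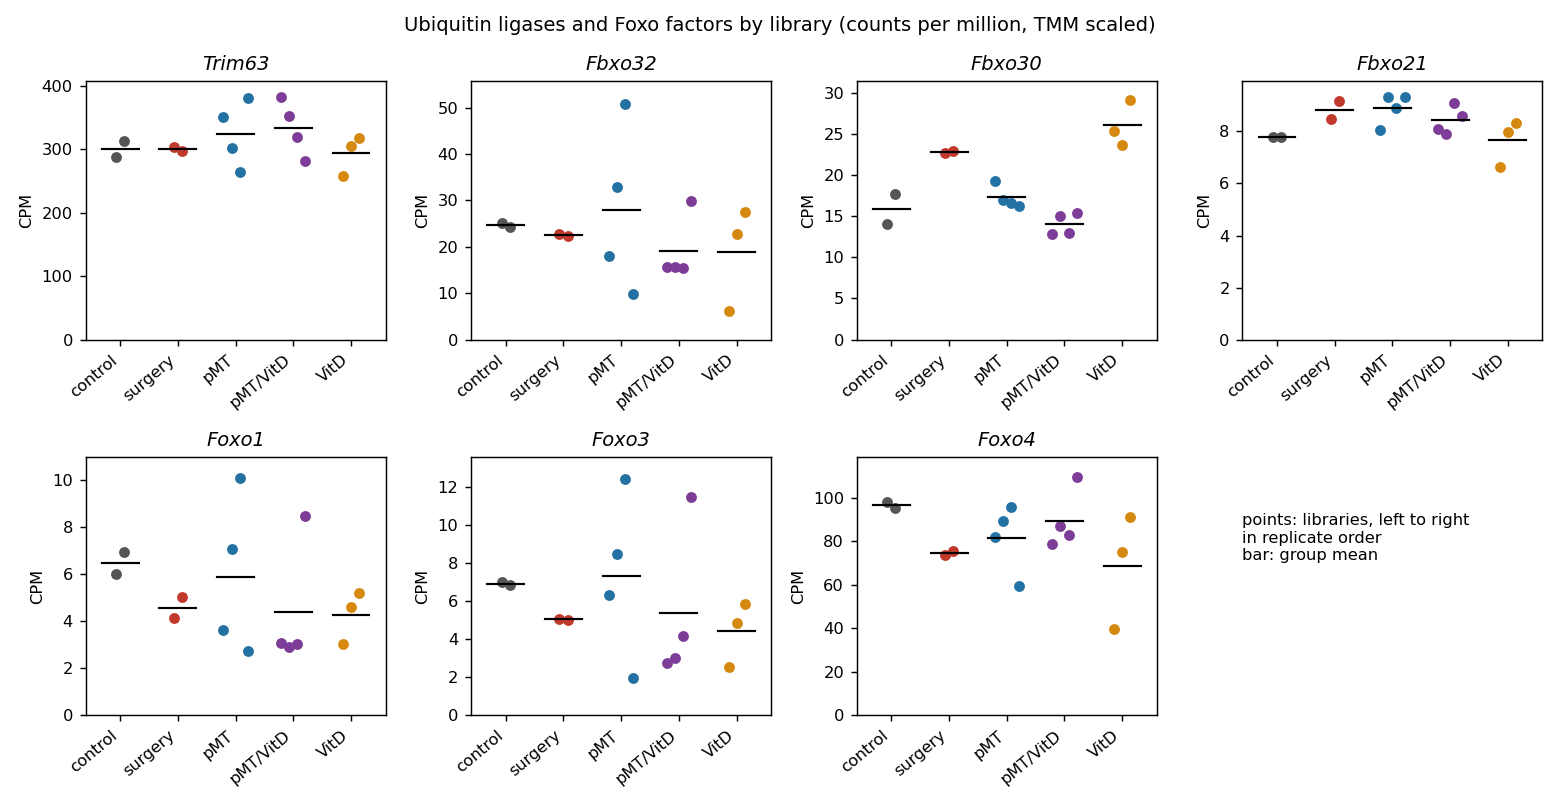
Level of each of the 7 genes (vertical axes, CPM, counts scaled to library size with TMM, from 0) in the 15 libraries of the 5 groups; points are libraries in replicate order and bars are group means. Fbxo30 separates surgery and VitD (22.7 to 29.1) from the other 3 groups (12.8 to 19.3), while Foxo1 and Foxo3 spread most within pMT and pMT/VitD, and Fbxo32 within pMT and VitD.

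Compared per length, in TPM (deposited values scaled for gene length and library size, median over the 15 libraries), Trim63 was the most abundant member at 222. Foxo4 (32.5) and Fbxo32 (29.7) followed, with ranges over libraries that overlapped. Fbxo30 stood at 5.21, and Fbxo21 (2.99), Foxo1 (2.74) and Foxo3 (2.70) were lowest and overlapped each other. In CPM, the highest library exceeded the lowest by 8.36-fold for Fbxo32, 6.29-fold for Foxo3, 3.70-fold for Foxo1, 2.75-fold for Foxo4, 2.28-fold for Fbxo30, 1.48-fold for Trim63 and 1.41-fold for Fbxo21. In TPM the spread was 8.66-fold for Fbxo32, 10.2-fold for Foxo3, 5.98-fold for Foxo1, 2.596-fold for Foxo4, 3.39-fold for Fbxo30, 1.396-fold for Trim63 and 1.75-fold for Fbxo21. All levels below are CPM, read counts scaled to library size and adjusted by the trimmed mean of M-values (TMM), and all differences are on the log2 scale with a 95% interval.

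Trim63, the ligase that targets thick-filament proteins of the sarcomere, measured 287 and 313 CPM in control and 304 and 297 in surgery. The pMT libraries held 351, 302, 264 and 381, the pMT/VitD libraries 382, 353, 319 and 282, and the VitD libraries 258, 305 and 318. Every group overlapped every other, and the surgery values lay between the controls. Surgery differed from control by 0.00 (SE 0.19, interval -0.40 to 0.40), which leaves room for a change of up to 1.32-fold. The pMT group differed from surgery by 0.11 (SE 0.16, interval -0.24 to 0.46), and the edgeR adjusted p was 0.997 and 0.834 for these comparisons. The order of the group means ran from pMT/VitD (334 ± 43.0, SD, n = 4) through pMT (324 ± 51.8, n = 4), surgery (300.7 ± 4.87, n = 2) and control (300.4 ± 18.5, n = 2) to VitD (294 ± 31.3, n = 3), and each neighbouring pair lay within its spread. This picture depended on the scaling. In the deposited TPM, Trim63 was 194 to 212 in control, 249.5 to 255 in surgery and 222 to 264 in VitD. It was 210 to 267 in pMT and 192 to 214 in pMT/VitD. With scaling to library size only, surgery differed from control by 0.27 (interval -0.03 to 0.57) and VitD by 0.25 (interval -0.03 to 0.52). Neither was called (edgeR adjusted p = 0.264 and 0.205). The medians over all genes with this scaling were 0.25 and 0.27, against -0.01 and -0.01 with TMM. Trim63 thus moved about as far as the median gene.

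Fbxo32, the muscle F-box protein atrogin-1, measured 25.2 and 24.3 CPM in control and 22.7 and 22.3 in surgery. The pMT libraries held 18.1, 32.8, 50.8 and 9.82, the pMT/VitD libraries 15.7, 15.6, 15.4 and 29.9, and the VitD libraries 6.08, 22.9 and 27.5. Both surgery values lay just below both controls, and the treated groups spanned those of control and surgery, with pMT 3 highest and VitD 1 lowest of all. Surgery differed from control by -0.14 (SE 0.67, interval -1.58 to 1.30) and pMT from surgery by 0.31 (SE 0.59, interval -0.95 to 1.57). The pMT/VitD group differed from pMT by -0.54 (SE 0.48, interval -1.57 to 0.48). None passed the edgeR test (adjusted p = 0.941, 0.875 and 0.696), and for surgery against control the interval runs from 0.335-fold to 2.46-fold. Without pMT 3 the difference between pMT and surgery was -0.15, on the other side of 0.

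Fbxo30, the F-box protein MUSA1, measured 14.04 and 17.73 CPM in control and 22.7 and 22.8 in surgery. The VitD libraries held 25.4, 23.7 and 29.1. In the pMT libraries it stood at 19.3, 16.9, 16.6 and 16.2, and the pMT/VitD libraries 12.77, 15.03, 12.99 and 15.39. All 5 surgery and VitD libraries lay above all 10 others, as a separation in either direction did for 10.8% of genes, and pMT/VitD lay below pMT without overlap, as 4.86% of genes did in either direction. Fbxo30 was the longest of the 7 members by relative length (2.08). With the length trend removed, the pMT/VitD libraries (13.7 to 17.04) and the pMT libraries (14.7 to 19.2) overlapped, and their difference was -0.17 (interval -0.39 to 0.06) in place of the -0.30 given below.

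Fbxo30 in VitD was higher than in control by 0.71 (SE 0.14, interval 0.42 to 1.01, edgeR adjusted p = 0.00969), in a comparison that called 8.67% of all genes. It was lower in pMT/VitD than in VitD by 0.89 (SE 0.11, interval of the difference -1.13 to -0.65, adjusted p = 0.000318), with 21.9% of genes called, and lower in pMT than in VitD by 0.59 (SE 0.11, interval -0.83 to -0.36, adjusted p = 0.00566), with 8.1% called. Against surgery alone, pMT/VitD differed by -0.70 (SE 0.12, interval -0.96 to -0.43, adjusted p = 0.00566), with 7.44% of genes called. Each of these 4 comparisons called Fbxo30 and no other of the 7 members. The difference of VitD from control lost its call without control 1 (0.56, adjusted p = 0.148) or control 2 (0.89, adjusted p = 0.0531), and that of pMT/VitD from surgery without surgery 1 (-0.70, adjusted p = 0.0753) or surgery 2 (-0.69, adjusted p = 0.0823). With 1 library left, that library is assumed to vary like the other groups.

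The remaining comparisons did not call Fbxo30. Surgery exceeded control by 0.52 (SE 0.15, interval 0.20 to 0.83, edgeR adjusted p = 0.0898), where 1.55% of genes were called, and the libraries did not overlap. The pMT group differed from surgery by -0.40 (SE 0.13, interval -0.67 to -0.13, adjusted p = 0.134), where 1.94% of genes were called, and pMT/VitD from pMT by -0.30 (SE 0.10, interval -0.52 to -0.07, adjusted p = 0.452). VitD differed from surgery by 0.20 (interval -0.09 to 0.48), pMT from control by 0.12 (interval -0.15 to 0.39) and pMT/VitD from control by -0.18 (interval -0.45 to 0.10). Taken as 1 group with equal weights, the operated groups exceeded control by 0.29 (SE 0.12, adjusted p = 0.354), where 0.0233% of genes were called. The order of the means ran from VitD (26.1 ± 2.77, SD, n = 3) through surgery (22.8 ± 0.127, n = 2), pMT (17.3 ± 1.39, n = 4) and control (15.9 ± 2.61, n = 2) to pMT/VitD (14.05 ± 1.36, n = 4), and no neighbouring pair in that order passed the test. The call between surgery and control depended on the tool: DESeq2 gave an adjusted p of 0.0188 with 5.82% of genes called, and edgeR without pMT 4 and pMT/VitD 4 gave 0.0478 with 4.17% called.

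In 4 comparisons edgeR called 0 of 7 members and 0% of all genes: pMT with control, pMT/VitD with control, VitD with surgery, and pMT/VitD with pMT. At an unadjusted p under 0.05 they held 528, 496, 139 and 1737 genes, and DESeq2 called 0, 1, 0 and 93 genes. The edgeR exact test on the libraries of the 2 groups alone called 12, 4, 6 and 0 genes. Among the members, only Fbxo30 in pMT/VitD against pMT had an unadjusted p under 0.05 there, and neither other tool called a member. The test of whether the effect of pMT differed with and without VitD also called 0 of 7 members and 0% of genes, and 0 of 7 members with 1.89% of genes called without pMT 4 and pMT/VitD 4.

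**Figure D2:**
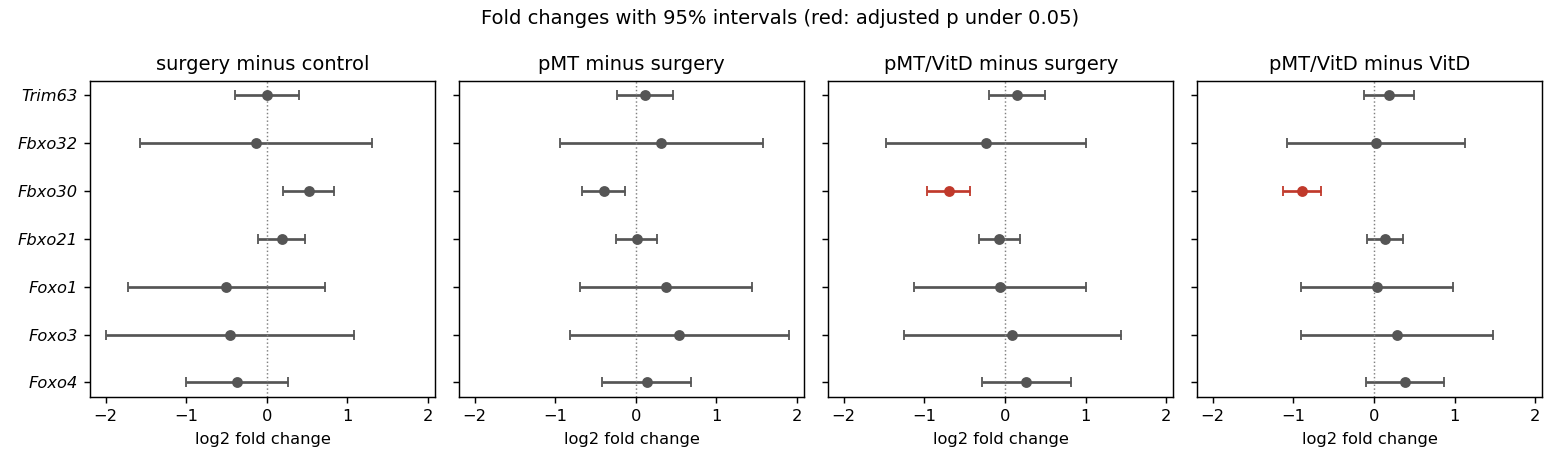
Log2 difference between groups (horizontal axis) for each of the 7 genes, with 95% intervals from edgeR's quasi-likelihood fit, in 4 comparisons; red marks an adjusted p under 0.05. Fbxo30 is the only gene in red, at -0.70 and -0.89 in the comparisons of pMT/VitD with surgery and with VitD, and the intervals of Fbxo32, Foxo1 and Foxo3 are the widest.

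Fbxo21, an F-box protein tied to denervation atrophy, measured 7.78 and 7.78 CPM in control and 8.49 and 9.18 in surgery. The pMT libraries held 8.05, 9.33, 8.92 and 9.32, the pMT/VitD libraries 8.10, 7.92, 9.10 and 8.60, and the VitD libraries 6.63, 7.99 and 8.34. The 3 groups of surgery, pMT and pMT/VitD lay above both controls, and VitD spanned them. Between surgery and control 66.1% of all genes did not overlap, and for pMT and pMT/VitD against control this share was not computed. Surgery differed from control by 0.18 (SE 0.14, interval -0.11 to 0.48) and pMT from surgery by 0.01 (SE 0.12, interval -0.24 to 0.26), with edgeR adjusted p of 0.531 and 0.982.

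Foxo1 is the family member best known from insulin signalling, and it measured 6.01 and 6.97 CPM in control and 4.14 and 5.02 in surgery. Among pMT libraries the values were 3.64, 7.10, 10.1 and 2.74, the pMT/VitD libraries 3.09, 2.93, 3.05 and 8.47, and the VitD libraries 3.04, 4.599 and 5.19. Surgery and VitD lay below both controls, whereas pMT ran from the lowest library of all to the highest.

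Foxo3 is a member whose forced activity alone wastes muscle fibres, and it measured 7.01 and 6.87 CPM in control and 5.05 in both surgery libraries. The pMT libraries held 6.32, 8.51, 12.4 and 1.98, the pMT/VitD libraries 2.77, 3.04, 4.19 and 11.5, and the VitD libraries 2.54, 4.88 and 5.87. As for Foxo1, surgery and VitD lay below control without overlap, and 3 of 4 pMT/VitD libraries lay below surgery while pMT/VitD 4 exceeded both controls.

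Foxo4, the most abundant Foxo transcript per length here, measured 98.3 and 95.2 CPM in control and 73.6 and 75.5 in surgery. In pMT they were 81.8, 89.4, 95.9 and 59.5, the pMT/VitD libraries 78.8, 86.8, 82.9 and 109.7, and the VitD libraries 39.9, 75.1 and 91.2. Surgery lay below control without overlap, and VitD 1 was lowest.

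The 3 Foxo genes were thus lower in CPM in both surgery libraries than in both controls, and none passed the test. Such a separation was common, since 6 of the 7 members and 66.1% of all genes did not overlap between surgery and control, and 4 of the 7 members and 52.1% of all genes did not overlap between VitD and control. The differences between surgery and control were -0.50 for Foxo1 (SE 0.57, interval -1.72 to 0.72), -0.46 for Foxo3 (SE 0.72, interval -1.997 to 1.08) and -0.38 for Foxo4 (SE 0.30, interval -1.01 to 0.26), with edgeR adjusted p of 0.702, 0.789 and 0.556. These standard errors pool the spread of all 15 libraries, which is far wider in the treated groups than between the 2 surgery libraries or the 2 controls. With scaling to library size only, the differences were -0.24 for Foxo1, -0.19 for Foxo3 and -0.11 for Foxo4, where the median over all genes was 0.25. In the deposited TPM, Foxo1 overlapped between control (2.92 and 3.39) and surgery (2.49 and 3.03). Foxo4 had TPM means of 34.1 in control and 32.6 in surgery. The edgeR exact test on the 4 surgery and control libraries alone takes its spread from them and also used TMM scaling. It called Foxo1, Foxo3, Foxo4 and Fbxo30 (adjusted p = 0.00612, 0.00234, 2.4e-06 and 1.8e-05), in a comparison where it called 36.3% of all genes. The same test between pMT and surgery called 1 of 7 members, Fbxo30 (-0.41, adjusted p = 0.0450), with 7.1% of genes called. Between pMT and surgery in the fit of all libraries, Foxo1 differed by 0.37 (SE 0.50), Foxo3 by 0.54 (SE 0.63) and Foxo4 by 0.13 (SE 0.26), with adjusted p of 0.811, 0.775 and 0.879.

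Between pMT/VitD and pMT, the comparison of adding VitD to mitochondria, Foxo1 differed by -0.43 (SE 0.41) and Foxo3 by -0.45 (SE 0.51) over all libraries, with edgeR adjusted p of 0.722 and 0.780. Without pMT 4 and pMT/VitD 4, the remaining pMT libraries held 3.64 to 10.1 CPM of Foxo1 and the remaining pMT/VitD libraries 2.93 to 3.09. The differences were then -1.20 for Foxo1 (adjusted p = 0.0153), -1.44 for Foxo3 (adjusted p = 0.00652) and -0.37 for Fbxo30 (adjusted p = 0.0438), where edgeR called 18.3% of all genes. Fbxo32 differed by -1.12 (adjusted p = 0.126) without them. Over the 5 groups the fit without these libraries called Fbxo30, Foxo3 (adjusted p = 0.0146) and Foxo1 (adjusted p = 0.0420), with 29.8% of genes called. Between pMT and VitD it called Fbxo30 and Foxo3 (higher by 1.03, adjusted p = 0.0319), with 13% of genes called. The libraries left out were recognised in part by their Fbxo32, Foxo1 and Foxo3, so these calls are no independent evidence.

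Across the 15 libraries, Fbxo32, Foxo1 and Foxo3 rose and fell together, as other genes did with them. On log2 CPM, Fbxo32 correlated with Foxo3 at Pearson r = 0.88 (permutation p = 1e-05, the smallest that 100000 permutations can give, adjusted 0.0001; Spearman rho = 0.91, permutation p = 1e-05) and with Foxo1 at r = 0.86 (permutation p = 2e-05, adjusted 0.00014; rho = 0.95, permutation p = 1e-05). Foxo1 and Foxo3 correlated at r = 0.93 (permutation p = 1e-05, adjusted 0.0001; rho = 0.93, permutation p = 1e-05). Leaving out the 2 libraries farthest from the median of the first gene gave r = 0.88, 0.93 and 0.87 for the same pairs, and correlating deviations from the group means gave 0.88, 0.87 and 0.93. The permutations shuffled all 15 libraries without regard to group. Such correlations were not particular to these members. The 3 genes most like each of them among 7798 were closer to it than the other members were, at r of 0.95 to 0.98. The share of all genes that reach such r was not computed. Foxo4 correlated with Fbxo32 at r = 0.84 (permutation p = 0.00019, adjusted 0.000997; rho = 0.74, permutation p = 0.00238), with 0.52 left without pMT 4 and VitD 1, the 2 farthest libraries, and 0.94 for deviations from the group means.

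Trim63 did not share this pattern, although it and Fbxo32 are usually named together. Its correlation with Fbxo32 was r = -0.30 (permutation p = 0.280, adjusted 0.452; rho = -0.46, permutation p = 0.0860) and -0.05 without the 2 farthest libraries. With Foxo1 it was r = -0.61 (permutation p = 0.0159, adjusted 0.0476; rho = -0.59, permutation p = 0.0217, adjusted 0.0651), and -0.46 without pMT 4 and pMT/VitD 1. Fbxo30 correlated with the other 6 members at r between -0.39 and 0.03, and none of these 6 passed adjustment. These 21 pairs were adjusted together. The libraries share technical properties, and how strongly counts depended on gene length differed among them: the rank correlation of a library's deviations with gene length ran from -0.39 in pMT/VitD 1 to 0.45 in pMT 3. With a smooth trend on length removed from each library, the correlations of Fbxo32 with Foxo3, Fbxo32 with Foxo1 and Foxo1 with Foxo3 were 0.92, 0.89 and 0.92, and the SD of Fbxo32 among the pMT libraries was 1.21 in place of 1.03 on the log2 scale.

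**Figure D3:**
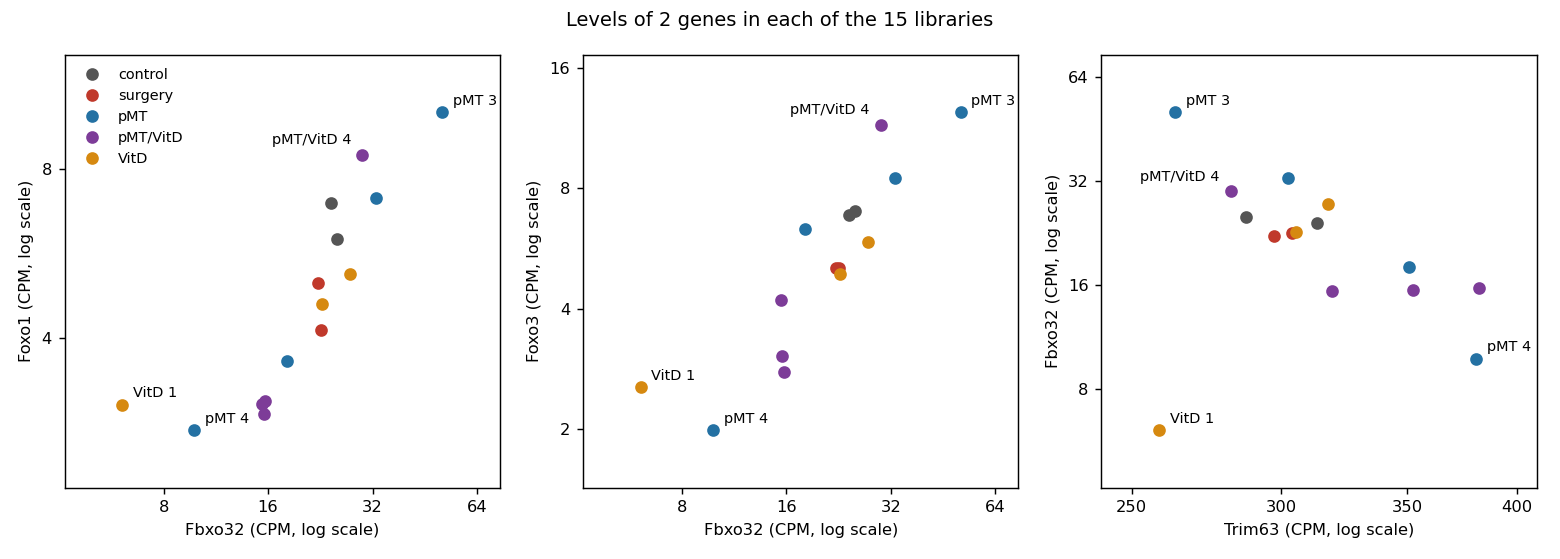
Levels of pairs of genes in the 15 libraries (both axes in CPM on a log scale), coloured by group, with 4 libraries named. Foxo1 and Foxo3 rise with Fbxo32 (r = 0.86 and 0.88) from VitD 1 and pMT 4 at the low end to pMT 3 and pMT/VitD 4 at the high end, whereas Trim63 and Fbxo32 (r = -0.30) do not rise together.

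By likeness of pattern, measured as the Pearson correlation of log2 CPM over the 15 libraries among 7798 genes of sufficient level, the nearest genes were Cul4a (0.97), Gtf3c1 and Klf9 for Fbxo32, Hivep2 (0.97), Lrp6 and Hipk2 for Foxo1, Eif4g1 (0.98), Mlxip and Epas1 for Foxo3, and Kif1c (0.99), Gid4 and Kat2b for Foxo4. Trim63 was most like Ccdc107 (0.95), Hoxc9 and Eed. Fbxo30 was most like LOC100911664 (0.95), Nfe2l2 (0.94) and Calcrl. Fbxo21 had no close match, with Klhl38 (0.79), Pfkfb3 and LOC679811 nearest.

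Among known Foxo target genes, 5 of 22 passed the 5-group test with edgeR, beside 11.8% of all genes. Sesn3, a sestrin that restrains mTORC1, measured 16.4 ± 0.0292 CPM in control (SD, n = 2), 27.8 ± 0.367 in surgery (n = 2), 17.4 ± 3.17 in pMT (n = 4), 13.8 ± 1.11 in pMT/VitD (n = 4) and 29.7 ± 0.953 in VitD (n = 3; adjusted p = 0.00029). As for Fbxo30, all 5 surgery and VitD libraries lay above all 10 others. Gadd45a, a stress gene that is also a marker of denervation, rose from 12.5 in control to 35.3 in VitD (adjusted p for that pair 0.0158) and measured 33.0 in surgery, 16.1 in pMT and 19.3 in pMT/VitD. Ccng2, a cyclin that slows the cell cycle, and Ctsl, the lysosomal protease cathepsin L, were also higher in VitD than in control (by 0.40 and 0.54, adjusted p = 0.0469 and 0.0264), and Eif4ebp1, the repressor of translation 4E-BP1, was called over the 5 groups (adjusted p = 0.0320). The list did not move one way: between surgery and control 1 of 22 genes passed, Sesn3 (0.76, adjusted p = 0.0324; 1.55% of all genes called), with a median of -0.01 against -0.01 over all genes. Between VitD and control 4 of 22 passed, all higher (8.67% of all genes called), with a median of -0.07 against -0.01 over all genes. Between pMT/VitD and VitD 3 passed as higher and 3 as lower, with 21.9% of all genes called. The most abundant targets not called over the 5 groups, Txnip and Sqstm1, had adjusted p of 0.638 and 0.0747 there, and Sqstm1, the autophagy receptor p62, was higher in pMT/VitD and in pMT than in VitD (by 0.39 and 0.43, adjusted p = 0.0269 and 0.0337).

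Of 21 other ubiquitin ligases of muscle, 1 passed the 5-group test (11.8% of all genes did). Trim54 (MuRF3), a close relative of Trim63, measured 479 CPM in control, 318 in surgery, 492 in pMT, 576 in pMT/VitD and 303 in VitD (adjusted p = 0.00741), and was lower in VitD than in control by 0.66 (adjusted p = 0.0445) and higher in pMT/VitD than in surgery by 0.86 (adjusted p = 0.0169). Its direction in both of these comparisons was opposite to that of Fbxo30. Asb2 and Klhl41, the most abundant ligase subunits of the list not called over the 5 groups, had adjusted p of 0.266 and 0.0981 there, and Klhl41 was lower in pMT than in VitD (difference -0.47, adjusted p = 0.0324). Of the genes for ubiquitin, its carriers and the SCF core, Ubb and Rps27a, which encode ubiquitin, did not pass over the 5 groups (adjusted p = 0.171 and 0.766), and Ubb was higher in pMT/VitD than in VitD (by 0.41, adjusted p = 0.0314); ubiquitin genes share near-identical repeats, so their counts could have been split between copies. Of 20 upstream regulators, which include Akt, AMPK, IGF1 and myostatin signalling genes, 0 passed over the 5 groups with edgeR, 0 had an unadjusted p under 0.05 and DESeq2 called 1, and Prkaa2 and Akt2, the most abundant, had adjusted p of 0.496 and 0.420. Between pMT/VitD and VitD edgeR called 4 of the 20, 2 higher and 2 lower, where 21.9% of all genes were called.

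**Figure D4:**
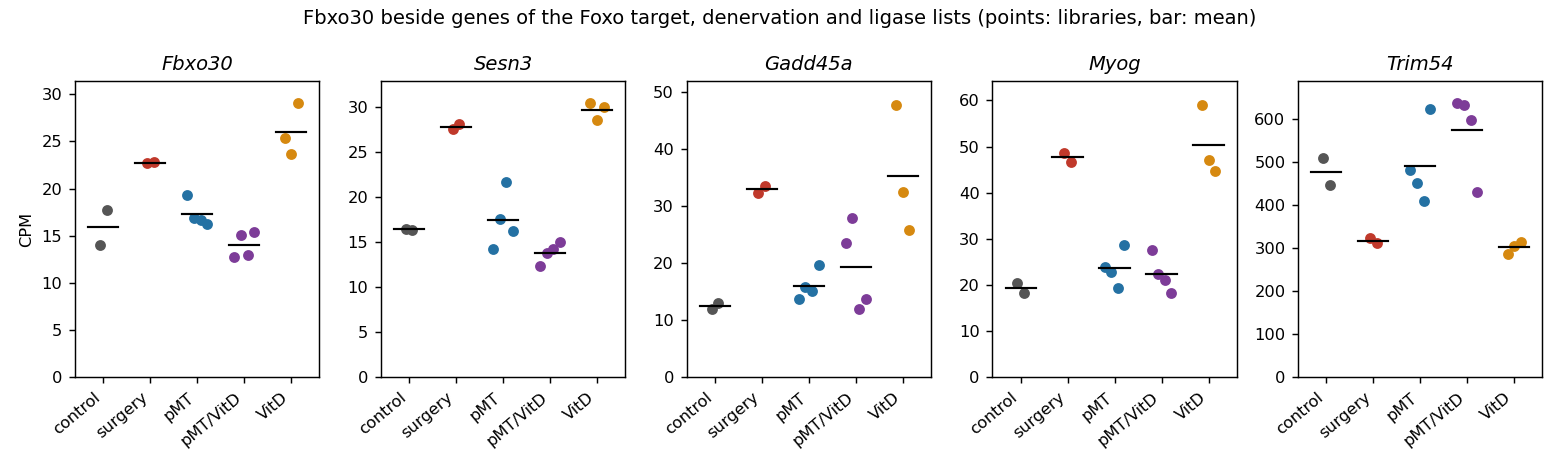
Levels in CPM (vertical axes, from 0) of Fbxo30 and 4 genes of the pathway lists in the 15 libraries; points are libraries and bars are group means. Sesn3, Gadd45a and Myog have their highest means in surgery and VitD as Fbxo30 does, while Trim54 (318 and 303) has its lowest means in those groups.

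Of 11 genes that are known to respond to denervation of muscle, 10 were tested and Dach2 was too low. Over the 5 groups 8 of 10 passed the edgeR test, where 11.8% of all genes did: Myog, Chrna1, Ncam1, Myh3, Runx1, Chrng, Chrnd and Gadd45a, while Hdac4 and Musk did not. Myogenin (Myog), the factor known to switch on Trim63 and Fbxo32 after denervation, was higher in surgery than in control by 1.29 (adjusted p = 0.00817) and lower in pMT than in surgery by 1.01 (difference -1.01, adjusted p = 0.00744). Trim63 in CPM with TMM scaling stayed within its spread in both comparisons. In TPM it was higher in both surgery libraries than in both controls. The share of all genes that separated in TPM was not computed. In CPM with TMM scaling, 66.1% of all genes did not overlap between surgery and control. Between surgery and control 4 of 10 genes were called, all higher, with a median of 1.39, where 1.55% of all genes were called and their median was -0.01. Between pMT and surgery 7 of 10 were called, all lower, with a median of -1.16, where 1.94% of all genes were called and their median was 0.02. VitD against control called 8, all higher (8.67% of all genes called), and pMT/VitD against surgery called 7, all lower (7.44% of all genes called). The list was chosen with earlier results of these data known, so these counts are no independent evidence. Comparisons here share their control or surgery libraries.

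Macrophage, fibroblast and Schwann cell markers moved with Fbxo30, and those of other cell types did not. Summed over 5 of 5 macrophage markers, the level was 102.5 to 102.7 CPM in control, 170.2 to 170.6 in surgery, 168 to 190.1 in VitD, 63.7 to 121 in pMT and 62.1 to 114 in pMT/VitD. Summed over 5 of 5 fibroblast markers it was 2562 to 2575 in control, 4529 to 4554 in surgery, 3768 to 7199 in VitD, 2523 to 2998 in pMT and 1889 to 2784 in pMT/VitD. Fast-fibre markers went the other way in part, from 79725 to 81083 in control, 64249 to 64293 in surgery, 50873 to 69037 in VitD, 67354 to 78880 in pMT and 77076 to 89692 in pMT/VitD. The 4 Schwann cell markers summed to 122 to 125 in control, 142 to 143 in surgery, 137 to 147 in VitD, 112 to 134 in pMT and 106 to 125 in pMT/VitD. The part of these cell types in the Fbxo30 result was not tested. Slow-fibre, adipocyte, endothelial and B cell markers were detected in all groups and did not separate the groups as Fbxo30 did. Slow-fibre sums were 4307 to 4385 in surgery and 3591 to 5542 in pMT/VitD. Adipocyte sums were 261 to 269 in surgery and 171 to 383 in pMT/VitD. Endothelial sums were 155 to 156 in surgery and 124 to 181 in pMT, and between 119.6 and 181 over all groups. B cell markers, 3 of 4 of which were tested, were at most 1.51 CPM.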

How the data were processed

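The authors deposited read counts per gene, with TPM and FPKM beside them, for 15 multifidus libraries of wild type rats. Per the labels and methods, paired reads were trimmed (Trimmomatic 0.38), aligned to rn6 (HISAT2 2.1.0) and assembled and counted with RefSeq annotation (StringTie 2.1.3b), and the submitters compared groups with edgeR 3.40.2. The deposited TPM were used for levels between genes and for relative gene length (mean count over mean TPM); the deposited FPKM were not used. Strand was not given in the sources used here. Counts were tested with edgeR 4.0.16 (R 4.3.3, limma 3.58.1) by the quasi-likelihood F-test on all 15 libraries with TMM scaling, keeping 17201 genes that passed filterByExpr, with Benjamini-Hochberg adjustment over them; a gene was called at an adjusted p under 0.05. Total counts were 52342134 to 73557878 per library (median 64352162), and members held 107 to 24407 counts per library; intervals come from the fitted spread between libraries. Each result was recomputed with DESeq2 1.42.0, with edgeR's exact test on the groups compared, with other scalings (RLE, library size) and low-count filters, with the replicate block, with a length trend removed, and with libraries left out. The script was tested on simulated counts. The members and lists were chosen with earlier results of these data known, and the test of the difference in pMT effect with and without VitD was added after the data were seen. Named genes are the 7 members, up to 8 called and 2 most abundant uncalled genes per list, and the 3 genes most like each member with a mean log2 CPM (prior count 2) of at least 3. Of the listed pathway genes, 2 are not reported here and were left out of the lists' counts and medians.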

Additional observations from a re-analysis of the deposited data

Results flagged for a closer look

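In the pMT/VitD group, 1 library, pMT/VitD 4, lay far from the other 3 for 3 members. Fbxo32 measured 29.9 CPM there against 15.4 to 15.7 in the others, Foxo1 measured 8.47 against 2.93 to 3.09, and Foxo3 measured 11.5 against 2.77 to 4.19. For each, the gap to the nearest library, as a share of the group's range, exceeded Dixon's 95% critical value for 4 samples. Of 14 sets of 4 values tested, 0.7 would pass by chance and 3 did, all in this library, and the 3 genes correlate with each other. No member was called by edgeR's test of whether the effect of pMT differed with and without VitD (adjusted p = 0.899 to 0.980, 0% of all genes called, 888 genes at an unadjusted p under 0.05, and 0 by DESeq2). The lowest was Fbxo30, with an interaction of -0.49 (interval -0.86 to -0.13). With the length trend removed it was -0.35 (interval -0.71 to 0.02). Without pMT 4 and pMT/VitD 4 the interaction called 325 genes (1.89%) and 0 of 7 members. It was then -0.56 for Fbxo30, -1.10 for Foxo1 and -1.25 for Foxo3 (edgeR adjusted p = 0.0909, 0.175 and 0.123). Each had an unadjusted p under 0.05, as 3614 of 17182 genes did. The libraries left out were recognised in part by their Foxo1 and Foxo3, so these values are no independent evidence.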

How the results depend on the processing

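Among recomputed fold changes 362 kept their direction and side of the threshold, 11 passed it only under the alternative, 4 lost it and 15 changed sign; the causes were not tested. Counts of members called were within 1.5 times the main count in 184 of 196 cases. For surgery against control, 0 members became 1 with library size scaling, where 997 of 17201 genes were called, 969 of them higher. The same held with DESeq2 (5.82% of genes called) and without pMT 4 and pMT/VitD 4 (4.17%). With the exact test 0 became 4, where 36.3% of genes were called. For pMT against surgery, 0 became 1 with the exact test (7.1% of genes called). Without pMT 4 and pMT/VitD 4, pMT/VitD against pMT called 3 members (18.3% of genes), pMT against VitD 2 (13%) and all 5 groups 3 (29.8%). Leaving out 1 replicate gave 0 to 1 member for VitD against control and for pMT/VitD against surgery. The sign changes were of differences that passed no test. With library size scaling, pMT minus surgery was -0.049 for Trim63 and -0.13 for Fbxo21, where the median over all genes was -0.12. Surgery minus control was 0.13 for Fbxo32 with this scaling, where the median over all genes was 0.25. With the length trend removed, surgery minus control was -0.016 for Trim63. Without pMT 4 and pMT/VitD 4, pMT minus surgery was -0.024 for Fbxo21. Leaving out 1 replicate gave -0.060 to 0.066 for Trim63 in surgery minus control, -0.15 to 0.59 for Fbxo32, -0.044 to 0.068 for Fbxo21 and -0.019 to 0.61 for Foxo1 in pMT minus surgery, and -0.039 to 0.30 for Fbxo30 in pMT minus control.

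With the replicate number as a block, pMT minus surgery was -0.065 for Fbxo32 and -0.052 for Fbxo21, and Fbxo30 in pMT/VitD minus VitD was -0.90 (edgeR adjusted p = 0.00294). The block changed no call of a member. It moved the genes called from 266 to 106 for surgery against control, from 334 to 78 for pMT against surgery, from 1279 to 350 for pMT/VitD against surgery and from 2035 to 1080 over the 5 groups. Deviations of same-numbered libraries of different groups correlated at -0.87 to 0.37 (median 0.04), over 0.1 in 6 of 24 pairs. Those of differently numbered libraries correlated at -0.72 to 0.83 (median -0.02), over 0.1 in 11 of 64 pairs. In a group of 2 libraries the deviations from the mean are exact opposites, so this check cannot decide whether the numbers pair libraries. DESeq2 called 1001 genes and the exact test 5923 for surgery against control, against 266. With 2 libraries in control and in surgery, the number of libraries rather than depth limits the precision.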
